A study of Mus musculus with 7 samples.

Results

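Peaks of the transcription factors LEF1 and TCF1 were examined at 8 genes of the ETS family, namely Ets1, Fli1, Ets2, Elf1, Elf2, Elf4, Gabpa and Etv6, in naive CD8 T cells sorted from mouse spleens. A peak was counted at a gene when it touched the RefSeq gene body or the 10 kb on either side in build GRCm38, and peaks between the gene bodies of Fli1 and Ets1 on chromosome 9 were counted too. Merging peaks of the 6 libraries that overlapped by at least 1 bp gave 38231 regions, of which 119 lay at the ETS genes. These held 507 of the 148963 peaks summed over the libraries.

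The data are CUT&RUN, in which an antibody brings a nuclease to a DNA-bound protein and the cut fragments are sequenced. There were 3 libraries with an antibody to LEF1 and 3 with an antibody to TCF1, all from spleen CD8 T cells of WT genotype that carry the transgenic TCR-P14 receptor and were sorted as Ly5.1+, CD44- and CD62L+. The study also labels 1 input control, which came from another gate (Ly5.1- and CD44+ CD8 cells) and whose peaks were not analysed here. Whether the libraries of a factor came from separate mice is not stated in the labels, so spreads and p-values measure the variation between these libraries only, and the animals' ages were not given in the sources used here. Each value is from a pool of sorted cells with 1 fixed receptor.

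The lists differed in length, with 27666, 37646 and 23704 peaks in LEF1 replicates 1 to 3 and 25623, 22901 and 11423 in TCF1 replicates 1 to 3. TCF1 replicate 3 therefore stands apart, and the main comparisons of the factors are given with and without it. Read totals were not given in the sources used here, so list length is the only measure of depth used. Genes that mark T cells (Cd3d, Cd3e, Cd3g, Cd8a, Cd8b1 and Thy1) each had a region in all 6 libraries, which was so for 33.8% of protein-coding genes. Of the markers of other cells reported here, Cd79a (B cells) and Itgam (myeloid cells) had regions of both factors, and Ms4a1, Lyz2, Csf1r, Ncr1 and Hba-a1 had none. A peak marks a place on DNA and not expression of the gene.

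ETS proteins share a winged helix-turn-helix domain that binds DNA around a GGAA core. Several members are highly expressed in lymphocytes, where ETS sites often lie next to sites of RUNX and TCF/LEF proteins in enhancers of T cell genes. LEF1 and TCF1 (gene Tcf7) are related HMG-box proteins that bind DNA directly and maintain T cell identity from the thymus onward. The question addressed here is where these factors had peaks around the genes of another family of T cell regulators.

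Start sequences are shown where peaks of several libraries had their summits close to a gene start, since they are the members' DNA on which the libraries can be compared base by base. The windows are those of RefSeq (GRCm38.p6) and the sequences are written 5′ to 3′ on the strand of the gene. In the first pair, which ends at the base before the start of Etv6 (chr6:134035450-134035699, plus strand) and at the base before the inner start of Elf1 (chr14:79515424-79515673, plus strand), capitals mark bases within 10 bases of a library's summit.
Etv6 start: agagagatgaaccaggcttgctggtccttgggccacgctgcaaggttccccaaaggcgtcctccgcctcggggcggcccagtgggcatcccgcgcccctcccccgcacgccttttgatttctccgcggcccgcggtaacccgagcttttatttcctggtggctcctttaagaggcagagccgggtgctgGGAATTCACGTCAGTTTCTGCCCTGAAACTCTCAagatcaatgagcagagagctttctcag
Elf1 inner start: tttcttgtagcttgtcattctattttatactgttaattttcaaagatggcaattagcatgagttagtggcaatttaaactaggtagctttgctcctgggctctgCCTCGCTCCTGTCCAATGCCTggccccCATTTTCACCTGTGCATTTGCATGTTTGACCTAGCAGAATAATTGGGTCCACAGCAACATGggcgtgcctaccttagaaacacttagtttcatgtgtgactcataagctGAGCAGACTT
The second pair are 30-base stretches before the annotated start of Gabpa at 84835124, which lies inside its RefSeq gene body. In the stretch at chr16:84834947-84834976 (plus strand) capitals mark the span of the summits of 5 libraries, and in the stretch at chr16:84835020-84835049 (plus strand) they mark the letters CCGGAAG read on the opposite strand.
Gabpa summits: aggaagcGCCTCGAAGGGAGTCTgcgaccg
Gabpa ETS match: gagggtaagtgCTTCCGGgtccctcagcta

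All 8 ETS genes had a region present in all 6 libraries, against 33.8% of 21887 protein-coding genes. All 8 also had a region held by LEF1 and a region held by TCF1, a factor being said to hold a region if its peaks were called there in 2 or 3 of its libraries. The corresponding shares of all protein-coding genes were 52.6% for LEF1, 49.8% for TCF1 and 54.1% for either factor. The median member had 7.0 regions held by either factor and the median protein-coding gene 1.0, and per 100 kb of window these medians were 8.04 and 1.17.

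The counts were unevenly spread among the members. The stretch from the far end of Fli1 to the far end of Ets1 with its flanks held 72 of the 119 regions, and the other 6 genes together held 47. In each library between 57.0% and 65.2% of the member peaks lay in the Fli1 to Ets1 stretch. The plot of peaks by locus shows Ets1 first in both factors, with Fli1 and Elf1 next (means of 20.0 and 15.7 peaks in LEF1 and 13.0 each in TCF1).

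**Figure D1:**
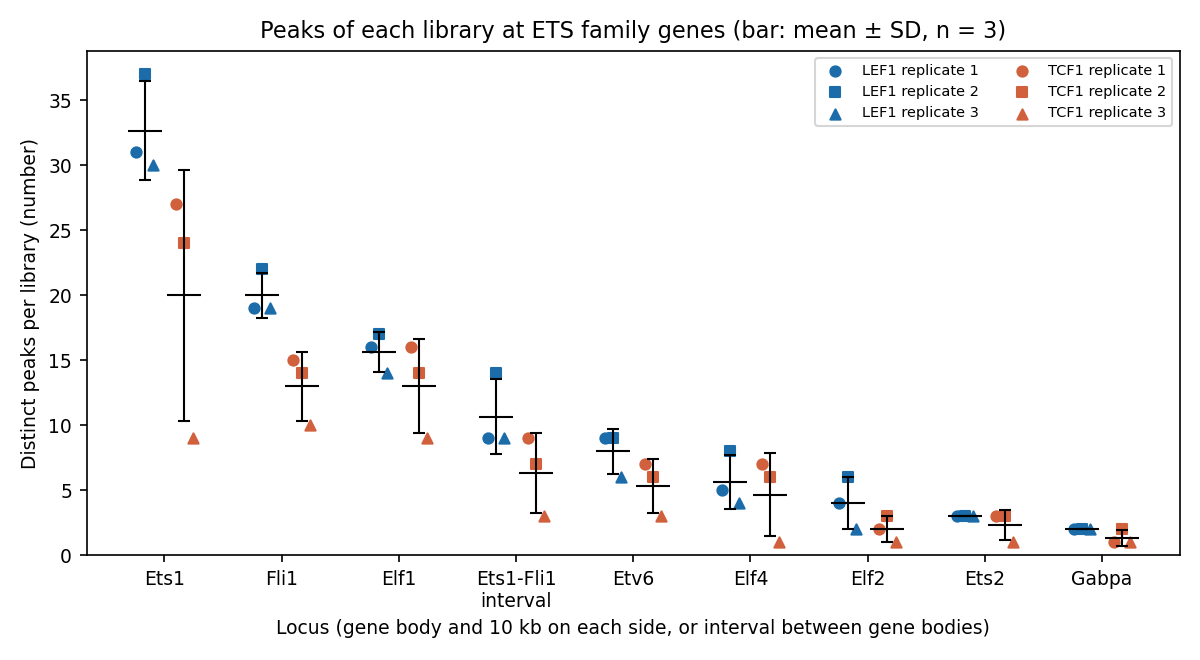
Number of peaks (vertical axis) at each ETS gene and in the interval between Fli1 and Ets1, in the 3 LEF1 and 3 TCF1 libraries; each point is 1 library and each bar a mean of 3. At Ets1 the LEF1 libraries have 30 to 37 peaks and the TCF1 libraries 9 to 27, and at Gabpa every library has 1 or 2.

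Ets1, a factor that T cells need for normal development and survival, is on chromosome 9 from 32636241 to 32757820. It had 31, 37 and 30 peaks in LEF1 replicates 1 to 3 and 27, 24 and 9 peaks in TCF1 replicates 1 to 3. Every LEF1 library was above every TCF1 library, and TCF1 replicate 3 was far below the other two. The means were 32.7 ± 3.79 and 20.0 ± 9.64 peaks (SD, n = 3 each), a difference of 12.7 peaks with an exact two-sided permutation p of 0.1, the smallest that 3 against 3 libraries allow, and a Benjamini-Hochberg adjusted p of 1.0 over 13009 genes. Of those genes, 794, or 6.1%, likewise had more peaks in every LEF1 library than in any TCF1 library, and 0.0461% had the opposite. The 13009 genes had a median of 2.0 held regions, and Ets1 had 30. No gene passed 0.05, adjusted or unadjusted (0 of 13009, 0.0%). When each list was cut to its strongest 11423 peaks, the difference at Ets1 was 1.0 peak with an exact permutation p of 0.6, and without TCF1 replicate 3 it was 7.17 peaks.

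The peaks at Ets1 merged into 38 regions, 30 held by LEF1 and 21 by TCF1, and every region held by TCF1 was also held by LEF1. In the number of held regions Ets1 took place 9 among 21887 protein-coding genes, and per 100 kb of window, at 21.2 held regions, place 133. The genes whose 6 peak counts were nearest to those of Ets1 were Thada, Grap2, Akap13, Wwox and Ankrd11, at Euclidean distances of 7.68 to 9.64 over the 6 libraries. Of these, 4 have gene bodies of 159 to 913 kb and Grap2 one of 80.3 kb, while that of Ets1 is 121.6 kb. Thada and Akap13 likewise had more peaks in every LEF1 library than in any TCF1 library, and Grap2, Wwox and Ankrd11 did not.

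Within Ets1 the peaks were not spread evenly. The first 36.0 kb of the gene body on the side facing Fli1 had no peak in any of the 6 libraries. The nearest region outside this end was 6.38 kb away, present in LEF1 replicate 2 alone. From 32692938 to 32747981, a stretch of 55.0 kb, there were 30 regions, with 28, 30 and 27 peaks in LEF1 replicates 1 to 3 and 26, 23 and 9 in TCF1 replicates 1 to 3. This stretch held all 9 regions of Ets1 that were present in every library.

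The Ets1 region with the best mean rank was at 32705894 to 32706805, inside the gene body and 51.0 kb from its far end. Its fold enrichment, the authors' ratio of peak signal to local background, was 51.2, 61.8 and 43.6 in LEF1 replicates 1 to 3 and 50.02, 43.6 and 22.2 in TCF1 replicates 1 to 3. Ranking peaks by fold within each library, with 0 the strongest and 100 the weakest, gave this region a mean percentile of 5.29. All 6 summits lay within 25 bp. Towards the far end of the gene, a region at 32745002 to 32746565 reached folds of 41.0, 73.2 and 34.4 in LEF1 and 54.6, 33.2 and 15.7 in TCF1, and one at 32740663 to 32741521 had folds of 37.4, 46.1 and 35.8 in LEF1 and 35.3, 32.0 and 15.3 in TCF1. Both had peaks in every library, at mean percentiles of 8.42 and 10.5. In contrast to these strong sites, a run near the other edge of the same stretch was weak. This run, picked as the longest held by both factors and absent from TCF1 replicate 3, of 7 neighbouring regions from 32693494 to 32704418, had 8, 8 and 10 peaks in the LEF1 libraries and 9, 9 and 0 in the TCF1 libraries. The strongest peak of each library in these regions had a fold of 4.87 to 15.7. Since the run was chosen for its pattern, which includes absence from the shortest list, its counts and its low folds are a description.

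**Figure D2:**
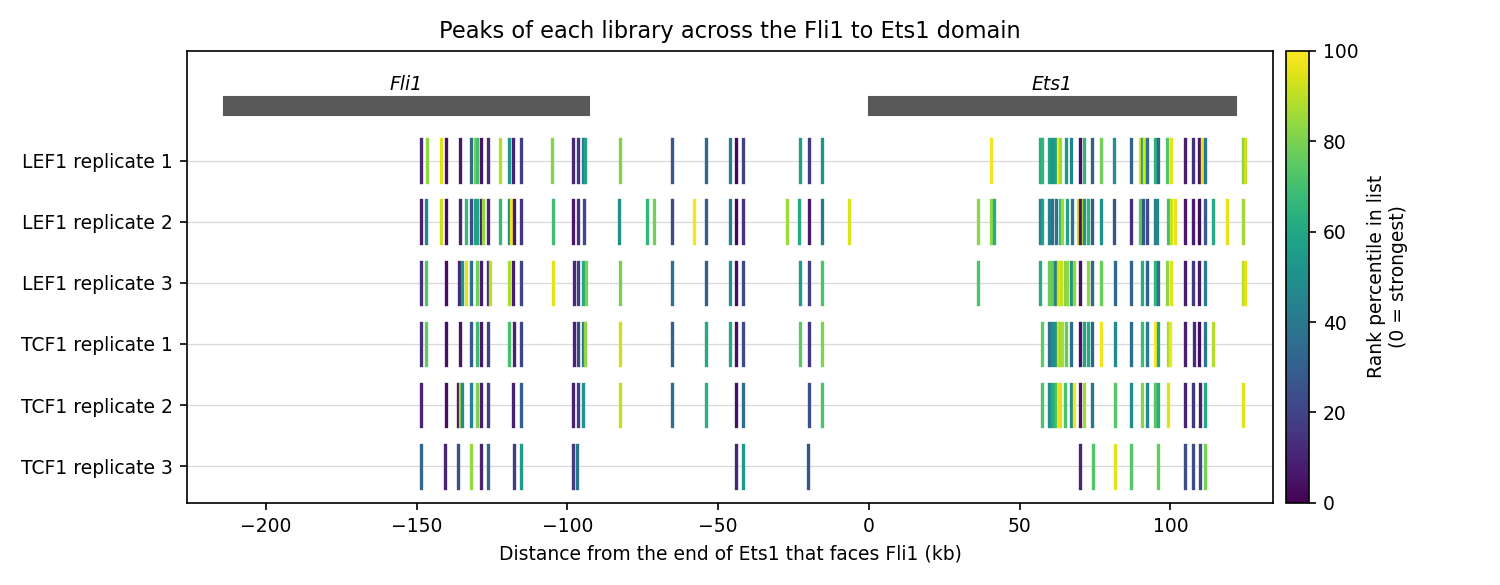
Peaks of the 6 libraries along the Fli1 to Ets1 stretch, by distance in kb from the end of Ets1 that faces Fli1 (horizontal axis), with the gene bodies drawn to scale, each peak as a tick of fixed width at its centre and the rank percentile in the list as colour (0 strongest). Both factors leave the first 36.0 kb of Ets1 and the first 65.0 kb of Fli1 from its far end without a peak, and TCF1 replicate 3 has the fewest peaks.

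Fli1, a relative of Ets1 and Erg with roles in blood stem cells, megakaryocytes and lymphocytes, is on chromosome 9 from 32422204 to 32543432. It had 19, 22 and 19 peaks in LEF1 replicates 1 to 3 and 15, 14 and 10 in TCF1 replicates 1 to 3. The groups did not overlap, with means of 20.0 ± 1.73 and 13.0 ± 2.65 (SD, n = 3 each) and an exact two-sided permutation p of 0.1 (adjusted p 1.0). Over all genes with a peak, which had a median of 2.0 held regions, 6.1% also showed this separation. Without TCF1 replicate 3 the TCF1 mean was 14.5 peaks, and with equal list sizes the counts were 10, 11 and 10 in LEF1 and 10 in each TCF1 library. There were 22 regions, 19 held by LEF1 and 13 by TCF1, and 10 were in every library. With equal list sizes each factor held 10. The end away from Ets1 was empty over 65.0 kb, and 21 regions lay in the 55.3 kb next to it on the Ets1 side.

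The best-ranked Fli1 region, at 32495445 to 32496324, had folds of 53.9, 74.1 and 46.4 in LEF1 and 47.4, 48.5 and 22.6 in TCF1. Its mean percentile was 4.69. At 32507053 to 32507879 another region of every library had folds of 45.9, 45.1 and 35.5 in LEF1 and 41.7, 36.9 and 23.2 in TCF1, which was the highest fold of TCF1 replicate 3 at the members. A broad region at 32499441 to 32501728 had folds of 41.0, 39.1 and 28.2 in LEF1 and 44.0, 42.0 and 14.9 in TCF1, and its 6 summits lay within 15 bp. Close to the end facing Ets1, a region at 32541213 to 32542432, 1.0 kb inside the gene, had folds of 12.5, 23.1 and 8.76 in LEF1 and 12.6 and 10.7 in TCF1 replicates 1 and 2, with no peak in replicate 3. At a mean percentile of 43.8 it was weaker than the 3 regions just given.

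Between Fli1 and Ets1 lie 92.8 kb, from 32543433 to 32636240, with 14 regions. The libraries had 9, 14 and 9 peaks in LEF1 and 9, 7 and 3 in TCF1, so the groups touched at 9. The strongest region of the whole member set was here, at 32591754 to 32592483, 43.8 kb from the end of Ets1 that faces Fli1. Its folds were 58.2, 79.2 and 48.8 in LEF1 and 52.6, 46.1 and 22.6 in TCF1, its mean percentile was 4.37, and its 6 summits lay within 30 bp. Among the 10890 regions found in all 6 libraries over the genome it took place 894. The other regions of the interval found in every library, at 32594161 to 32594727 and 32615831 to 32617020, had mean percentiles of 27.9 and 18.5. The latter had folds of 24.04, 44.1 and 21.5 in LEF1 and 25.6, 18.7 and 13.96 in TCF1. A region at 32570727 to 32571052 had folds of 13.1 to 22.3 in the 5 other libraries and no peak in TCF1 replicate 3.

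TCF1 replicate 3 kept different shares of the regions of TCF1 replicates 1 and 2 at these neighbours. It had 10 of 13 at Fli1 (76.9%), 9 of 21 at Ets1 (42.9%) and 3 of 7 in the interval (42.9%), beside 51.8% over all regions. The regions in question ranked at a median percentile of 19.2 at Fli1 and 54.0 at Ets1 in the first pair of TCF1 libraries. The difference between the genes was not tested.

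Ets2, a relative of Ets1 that like it is phosphorylated downstream of Ras, is on chromosome 16 from 95702407 to 95721049. It had 3, 3 and 3 peaks in LEF1 and 3, 3 and 1 in TCF1, the groups overlapping (exact permutation p 1.0). Its strong region lay outside the gene body, 7.61 kb beyond its upper end at 95728655 to 95729263, with folds of 42.0, 62.3 and 41.8 in LEF1 and 34.2, 34.4 and 18.8 in TCF1. The merged region that reached the start was far weaker, at folds of 6.52 to 10.8 in 5 libraries, and TCF1 replicate 3 had no peak there. Of these peaks only that of TCF1 replicate 1 itself entered the start window. The next region past the 10 kb limit, 11.2 kb away, was in the 3 LEF1 libraries and in no TCF1 library, at a mean percentile of 71.0.

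Elf1, Elf2 and Elf4 form the ELF branch of the family. Elf1 is abundant in lymphoid cells, Elf2 is its close relative, and Elf4 is known for restraining proliferation of CD8 T cells. Elf1, on chromosome 14 from 79481174 to 79582491, had 16, 17 and 14 peaks in LEF1 and 16, 14 and 9 in TCF1, groups that overlap (exact permutation p 0.5). It had 19 regions, of which 14 were held by LEF1, 11 by TCF1 and 8 found in every library. The strongest were inside the gene at 79529724 to 79530859, with folds of 36.7, 54.6 and 42.2 in LEF1 and 37.1, 34.5 and 15.7 in TCF1, and at 79535210 to 79538230, with folds of 37.2, 53.4 and 36.2 in LEF1 and 36.6, 32.4 and 16.7 in TCF1. Their mean percentiles were 9.31 and 9.42. A pair of further strong regions in the upper flank, at 79586785 to 79588024 and 79590745 to 79591984, lie in the neighbouring gene Sugt1, and the former spans a start of that gene. Another region in every library, at a mean percentile of 23.6, lay 11.4 kb from Elf1 and so just outside the limit.

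Elf2, on chromosome 3 from 51252720 to 51340683, had 4, 6 and 2 peaks in LEF1 and 2, 3 and 1 in TCF1 (exact permutation p 0.3). With equal list sizes each LEF1 library had 2 peaks and each TCF1 library 1, a difference that was not tested. Its single region of all 6 libraries, at 51275990 to 51276642, had folds of 29.2, 38.2 and 23.9 in LEF1 and 37.4, 32.6 and 15.0 in TCF1. This region is 23.3 kb inside the gene. A region at 51289062 to 51289515 had folds of 17.3, 20.3 and 15.6 in LEF1 and a peak in 1 TCF1 library, replicate 2, at 8.57. The other regions of Elf2 were weaker.

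Elf4, on the X chromosome from 48411049 to 48463132, had 5, 8 and 4 peaks in LEF1 and 7, 6 and 1 in TCF1 (exact permutation p 0.8). Without TCF1 replicate 3 the direction of the means was reversed, at 5.67 peaks in LEF1 and 6.5 in TCF1. Its region of all 6 libraries, at 48429335 to 48429934, was weak, with folds of 7.61, 16.1 and 9.49 in LEF1 and 10.8, 9.50 and 5.45 in TCF1. Only 1 of the 5 Elf4 regions of TCF1 replicates 1 and 2 was also in replicate 3. A region at 48451923 to 48452455 had folds of 12.1, 16.8 and 9.34 in LEF1 and 11.4 and 8.25 in TCF1 replicates 1 and 2. The members' sole region held by TCF1 and not by LEF1 was at Elf4 (48454093 to 48454377), with folds of 7.01 and 6.12 in TCF1 replicates 1 and 2 and 4.69 in LEF1 replicate 2.

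Gabpa encodes the DNA-binding subunit of GABP, which binds the promoters of many housekeeping and mitochondrial genes. It is on chromosome 16 from 84834891 to 84863783 and had 2, 2 and 2 peaks in LEF1 and 1, 2 and 1 in TCF1 (exact permutation p 0.4). The region at its start, 84834811 to 84835305, was in every library, with folds of 7.37, 9.49 and 7.10 in LEF1 and 8.60, 8.12 and 4.56 in TCF1. At a mean percentile of 72.8 it took place 10756 of the 10890 regions of all 6 libraries, near the weak end. The region also touched the neighbouring gene Atp5j. The genes of the GABP partner subunits, Gabpb1 and Gabpb2, had 3 regions each held by LEF1, and 1 and 2 held by TCF1, and neither had a region in every library.

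Etv6, a repressor of the family that blood stem cells need, spans 234 kb on chromosome 6 from 134035700 to 134270158. It had 9, 9 and 6 peaks in LEF1 and 7, 6 and 3 in TCF1, groups that overlap at 6 (exact permutation p 0.3). Etv6 had 8 held regions, or 3.14 per 100 kb, the lowest density of the members. Its best region, 12.3 kb inside the gene at 134047984 to 134048548, had folds of 23.3, 33.5 and 18.4 in LEF1 and 25.6, 19.5 and 9.37 in TCF1. A region at 134183918 to 134184326, far inside the gene, was also in every library, at a mean percentile of 42.4.

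The regions of all 6 libraries had a median percentile of 16.4 in the Fli1 to Ets1 stretch and 41.6 at the other 6 genes. Over all 37 member regions of this kind the median was 18.5, beside 26.6 over the genome. Of the 37, 9 ranked in the top 10 percent on average (3 at Fli1, 1 in the interval, 2 at Ets1, 1 at Ets2 and 2 at Elf1), beside 18.7% over all regions of 6 libraries. None of the 9 touched a start window of a protein-coding gene, that is, the 250 bases before to 50 bases after an annotated start. Ets1 and Fli1 had no start window in the annotation used, so a region at their own starts could not be counted as touching one. Member regions of all 6 libraries at such windows, 4 in number, had a median percentile of 44.1, and the 33 elsewhere 18.0. The same direction held over the genome with a smaller gap, 31.5 at start windows and 24.9 elsewhere.

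**Figure D3:**
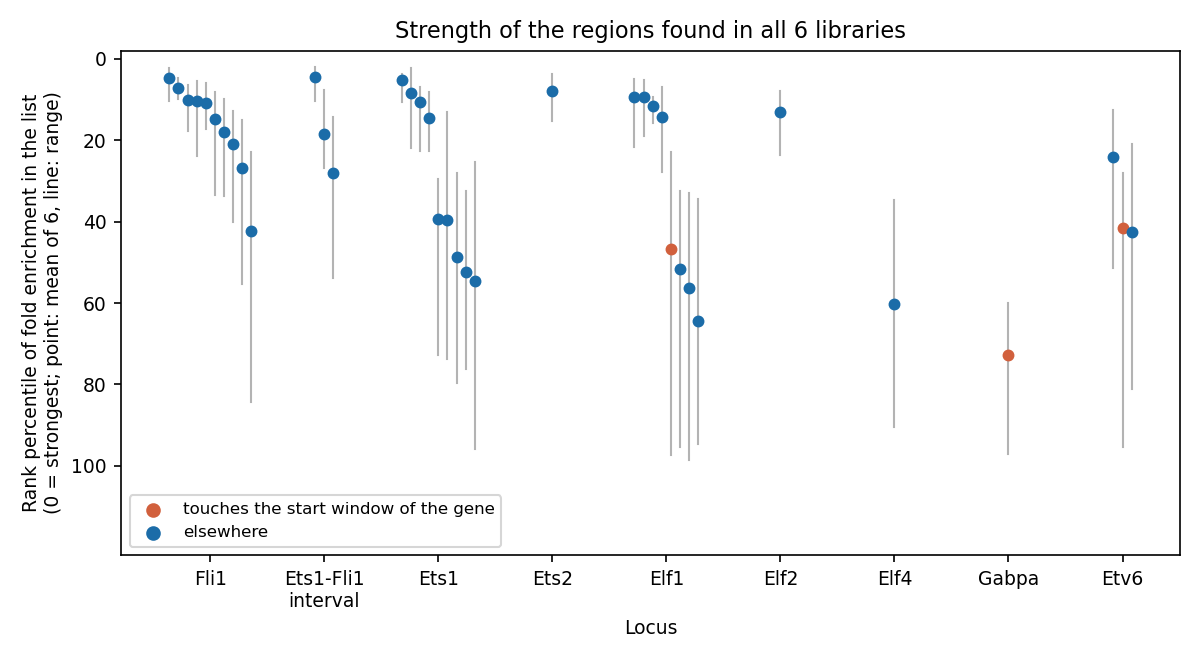
Mean rank percentile of fold enrichment (vertical axis, 0 strongest) of each member region found in all 6 libraries, by locus; lines span the lowest to the highest library and colour marks regions at the gene's own start window. The strongest regions are in Fli1, the interval and Ets1 (4.37 to 5.29), and the weakest is at the Gabpa start (72.8). No start window was available for Ets1 and Fli1.

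The members were not in order of window length. Etv6 has the longest window of the members (254.5 kb) and 8 held regions, and Ets1 has a window of 141.6 kb and 30. Fli1, with a window of nearly the same length as Ets1 (141.2 kb), had 19. With equal list sizes LEF1 held 10 regions at Ets1 and 10 at Fli1, and TCF1 held 8 and 10. Counting every region, also those found in 1 library only, neighbouring regions were a median of 0.753 kb apart at Ets1, 1.14 kb at Fli1 and 3.13 kb at Elf1. Between regions found in all 6 libraries the medians were 3.78 kb at Ets1, 2.5 kb at Fli1 and 4.83 kb at Elf1.

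**Figure D4:**
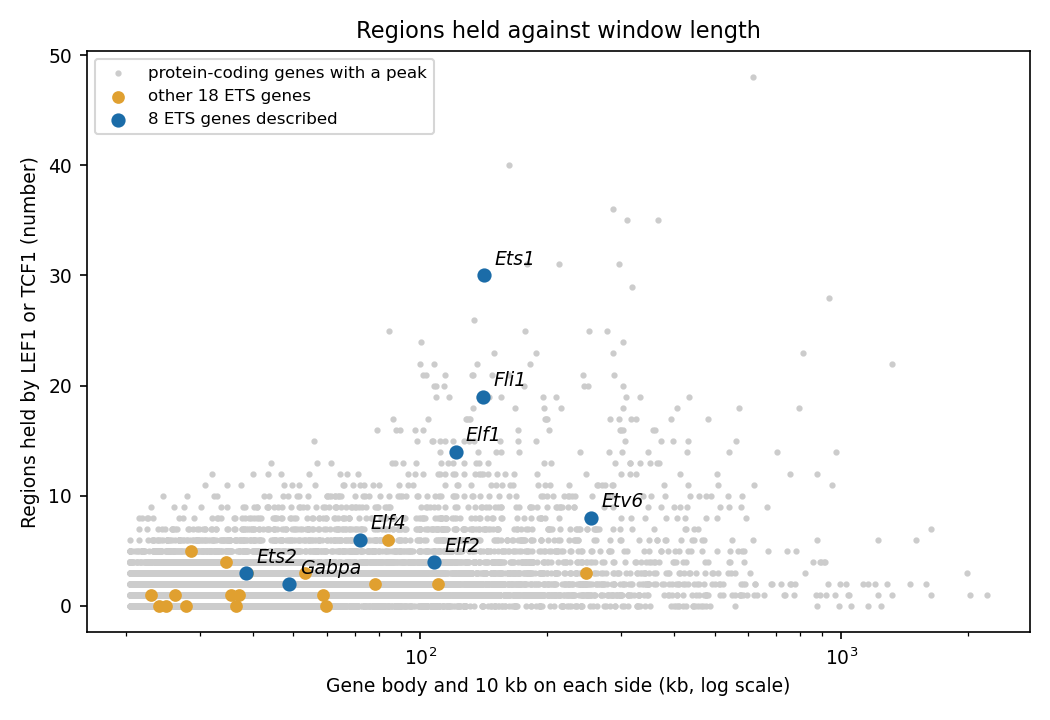
Regions held by either factor (vertical axis) against window length in kb (horizontal axis) for the 8 member genes and the other ETS genes, each point 1 gene. With the full lists drawn here, Ets1 (30 regions) and Fli1 (19) lie above Etv6 (8) although the window of Etv6 is longer.

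The table of starts had 9 windows for 6 of the 8 genes, and Ets1 and Fli1 had no entry. A region held by either factor touched 6 of the 9 windows, beside 31.4% of all 21263 windows, and a region of all 6 libraries touched 3, beside 17.5%. Those 3 were the starts of Etv6 and Gabpa and the inner start of Elf1. The start of Ets2 was reached by its merged region, although TCF1 replicate 1 alone had a peak that itself entered the window.

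At Etv6, where the first sequence above ends, the summits lay 38, 51 and 49 bases before the start in LEF1 replicates 1 to 3 and 38 bases before it in each TCF1 library. The range over all 6 was 13 bp, the smallest of the 37 member regions found in all libraries, whose median range was 60 bp beside 49 bp over the genome. Folds at the Etv6 start were 16.9, 19.3 and 14.3 in LEF1 and 16.6, 15.2 and 4.87 in TCF1, so TCF1 replicate 3 was low in strength while its summit was at the same base as the other TCF1 libraries. Part of this region also lies in the neighbouring gene Gm46977.

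At Gabpa the summits were 155 to 163 bases before the start in LEF1 and 159, 170 and 194 bases before it in TCF1. This start, at 84835124, lies inside the RefSeq gene body, which begins at 84834891. The summits, at 84834930 to 84834969, were therefore within the gene body. The letters CCGGAAG, an ETS recognition sequence, were found on the opposite strand at 84835031 to 84835037, between 93 and 87 bases before the start. The printed ETS match shows these letters, and they were not among the bases under the summits. The shorter GGAA core, which was not searched for, also stands in the Gabpa summits line just before the capitals. CCGGAAG occurs on either strand in 11.6% of all start windows of this length.

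The first motif search covered CTTTGAT and CTTTGTT (TCF/LEF), CCGGAAG (ETS) and TGTGGTT (RUNX) on both strands, where CTTTGAT and CTTTGTT share their first 5 letters. The match at Gabpa was the sole one of these exact letters in the 9 windows. Over all windows, 3.22%, 5.01%, 11.6% and 4.71% held each motif in turn. Other sequences with a GGAA core were not searched for. After the windows had been read, CTTTGAA and CTTTGTA (in 4.54% and 3.17% of all windows) were added, and CTTTGAA was found on the opposite strand 212 bases before the inner start of Elf1. These letters are lower case in the Elf1 line, that is, more than 10 bases from any summit.

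Elf1, Elf2 and Elf4 each have 2 start windows in the table, 34.5, 63.1 and 8.8 kb apart. In all 3 genes a held region touched the inner window and none touched the outer one. Of 962 protein-coding genes with 2 start windows at least 1 kb apart, 11.3% had a held region at the inner start only, 21.6% at the outer start only, 6.13% at both and 60.9% at neither. This comparison was chosen after the members' values had been seen, so it is a description.

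The inner start of Elf1 had peaks of all 6 libraries, with folds of 19.9, 17.4 and 12.1 in LEF1 and 12.7, 12.3 and 4.52 in TCF1. Their summits were 109, 69 and 87 bases before the start in LEF1 and 98, 136 and 0 bases before it in TCF1, so the capitals in the Elf1 line cover a wide stretch. Its outer start had 1 peak, in TCF1 replicate 1, with a fold of 4.57. At the inner start of Elf2 the summits of LEF1 replicates 1 and 2 were 379 and 311 bases before the start, and those of TCF1 replicates 1 and 2 were 88 and 49 bases after it. The peaks at the inner start of Elf4 had summits 3 bases after the start in LEF1 replicate 2 and 22 bases after it in TCF1 replicates 1 and 2.

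**Figure D5:**
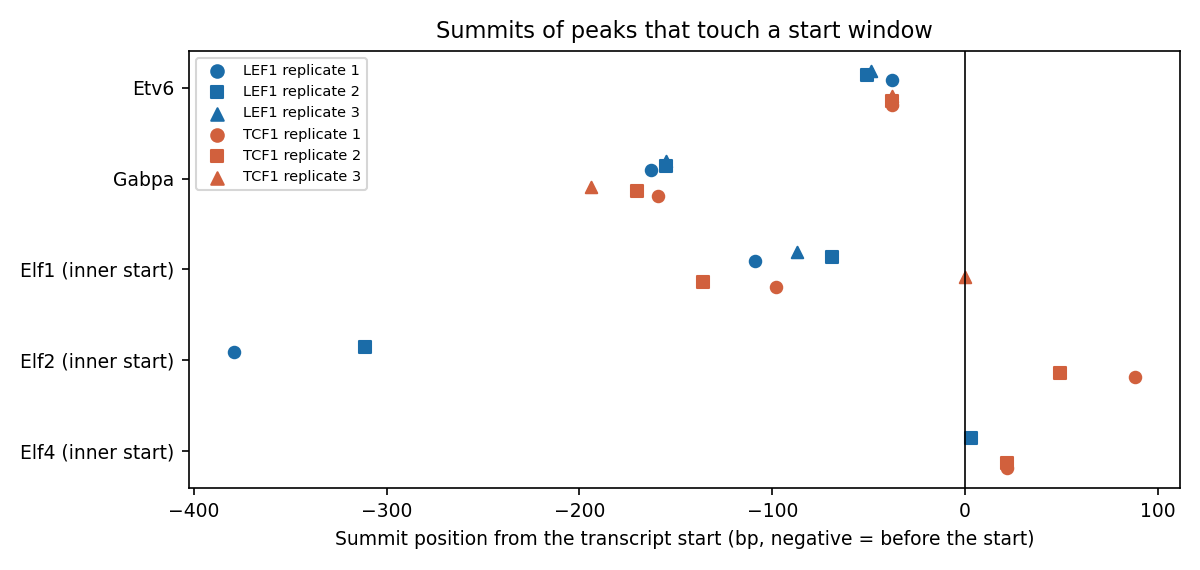
Distance of each library's peak summit from the annotated start in bp (horizontal axis, negative before the start). Shown are the starts of Etv6 and Gabpa and the inner starts of Elf1, Elf2 and Elf4, and each point is 1 library. The peaks of TCF1 replicate 1 at the Ets2 start and at the outer Elf1 start are not drawn. At Etv6 all 6 summits fall within 13 bp, and at the inner start of Elf2 the LEF1 and TCF1 summits lie on opposite sides of the start.

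Taken over all members, the LEF1 libraries had 98, 116 and 89 peaks and the TCF1 libraries 87, 79 and 38. The groups did not overlap, with means of 101.0 ± 13.7 and 68.0 ± 26.3 (SD, n = 3 each). Without TCF1 replicate 3 the TCF1 mean was 83.0 ± 5.66 (SD, n = 2), and with equal list sizes the counts were 38, 38 and 42 in LEF1 and 36, 34 and 38 in TCF1, which touch at 38. As a share of the list the values were 0.354%, 0.308% and 0.375% in LEF1 and 0.340%, 0.345% and 0.333% in TCF1, and the groups overlapped. The means of these shares, 0.346% ± 0.0344 and 0.339% ± 0.00616, differed by 0.00689 percentage points, less than the spread of the LEF1 libraries, and by 0.00369 points without TCF1 replicate 3. With equal list sizes the means were 0.344% ± 0.0202 and 0.315% ± 0.0175, a difference of 0.0292 points that exceeds the spread, while LEF1 replicates 1 and 2 and TCF1 replicate 3 were equal at 0.333%. The LEF1 lists were also longer on average, as given above.

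Of the 119 member regions, LEF1 held 93 (78.2%) and TCF1 68 (57.1%), beside 71.7% and 55.5% of all regions. Both factors held 67 (56.3%), beside 53.6%. LEF1 without TCF1 held 26 (21.8%), beside 18.1%, and TCF1 without LEF1 held 1 (0.840%), beside 1.93%. There were 37 in all 6 libraries, or 31.1% (95% exact binomial interval 22.9 to 40.2%, counting error only), beside 28.5%. Present in every library but TCF1 replicate 3 were 26 (21.8%), beside 21.4%, and without that library 63 regions were in every library. A further 22 (18.5%, beside 23.1%) were in 1 library only, 17 of them in LEF1 replicate 2, the longest list.

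Most of the 119 regions lay in a gene body of a member (98, of which 31 were in every library), with 7 in a flank (3 in every library) and 14 between Fli1 and Ets1 (3 in every library). The member regions were a median of 461 bp wide, beside 368 bp over all regions, and those found in every library 814 bp, beside 687 bp. Peak widths within libraries showed the same direction. The median width of the members' peaks was 384, 429.5 and 401 bp in LEF1 replicates 1 to 3 and 471, 434 and 332 bp in TCF1 replicates 1 to 3, and that of all peaks was 340, 342 and 365 bp and 376, 364 and 322 bp. In every library the member peaks were thus wider in the median, by the least in TCF1 replicate 3. Together they covered 46.7, 63.6 and 44.1 kb in LEF1 and 47.4, 38.7 and 13.8 kb in TCF1.

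In strength the members' peaks as a whole were near the middle of their lists. Their median rank percentile was 51.9, 45.7 and 53.2 in LEF1 and 50.6, 57.7 and 33.5 in TCF1, and the groups overlapped. The low value in TCF1 replicate 3 comes from the list with the fewest peaks. The means were 50.2 ± 4.02 and 47.3 ± 12.4 (SD, n = 3 each), a difference smaller than the spread of the TCF1 libraries, which turned negative (-3.89) without TCF1 replicate 3. With equal list sizes the groups no longer overlapped, at 38.5, 38.1 and 41.2 in LEF1 and 33.2, 33.2 and 33.5 in TCF1, where the members ranked stronger, a difference of 5.97 that exceeds the spread. No test was run on these values. The strongest 10 percent of each list held 11, 18 and 10 member peaks in LEF1 and 13, 13 and 1 in TCF1, with means of 13.0 and 9.0, or 13.0 in both factors without TCF1 replicate 3.

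Regions in every LEF1 library and no TCF1 library numbered 2 (1.68%, beside 3.14%), and none was in every TCF1 library and no LEF1 library, beside 0.0183%. The former were in Fli1 at 32531064 to 32531808, with LEF1 folds of 6.39, 8.03 and 4.70, and in Ets1 at 32692938 to 32693258, with LEF1 folds of 8.82, 13.1 and 8.65. Both were weak, at mean percentiles of 82.4 and 55.6.

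The other genes of the family ranged from no region to 6 held regions. Of 18 further ETS genes, 13 had at least 1 region and Fev, Spic, Elf3, Ehf and Spdef had none. LEF1 held a region at 13 of the 18 and TCF1 at 10, and 6 had a region in every library. The median was 1.0 held region, equal to that of all protein-coding genes, and 2.62 per 100 kb. The most were at Elk3 and Erf, repressors of the family, with 6 and 5 held regions, followed by Etv3 with 4, and then Erg, a relative of Fli1, Elk4, and Spi1, which encodes the myeloid and B cell factor PU.1, with 3 each. In number these were below Ets1, Fli1, Elf1 and Etv6, while Elk3 equalled Elf4, and Elk3 and Erf were above Elf2, Ets2 and Gabpa. Etv3 equalled Elf2 at 4. Per 100 kb of window Erf had 17.5 held regions and Etv3 11.6, beside 13.5 at Fli1 and 11.5 at Elf1.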

How the data were processed

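The deposited CUT&RUN peak lists (LEF1 and TCF1, 3 libraries each) were used, with groups and replicate numbers from the sample titles. The submitters' processing notes list MACS3 3.0.3, Bowtie2 2.4.4 and Picard, as well as Trim Galore 0.6.6, deepTools 3.5.1 and FastQC 0.12.1, and build GRCm38.p6. Which options, filters and control the peak caller used is not given in the sources used here. Peaks were called per library, as the deposited peak names show. The deposited values per peak are the authors' fold enrichment (a ratio to local background), −log10 p-value and −log10 q-value, a score made from the q-value, and the summit's offset. Fold was used to rank peaks within a list, and −log10 q to shorten lists.

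Distinct intervals were counted with Python 3.11.15, pandas 2.3.3, numpy 2.4.6 and SciPy 1.17.1, and figures drawn with matplotlib 3.10.9. Gene positions, starts and start sequences came from RefSeq tables of GRCm38.p6. Coordinates are 1-based. Peaks of the 6 libraries sharing at least 1 bp were merged into regions, and a factor held a region with peaks in 2 of its 3 libraries. The gene's window was its body and 10 kb on each side. Peak counts per gene were compared by an exact two-sided permutation test over the 20 assignments of libraries (smallest p 0.1), with Benjamini-Hochberg adjustment over all 13009 protein-coding genes with a peak. No test was run over the members as a set. In simulated counts for those 13009 genes, 200 genes with a mean of at least 3 peaks were given a 6-fold difference. All of these (100.0%) reached the smallest p, as did 4.29% of the others. The simulated libraries did not differ in list length as the real ones did. These shares therefore do not describe smaller differences, genes with few peaks or the real lists. All 400 simulated regions were recovered.

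Named were the 8 members and the Ets1-Fli1 interval, at each the best-ranked region present in every library, regions at member starts, in every library of 1 factor only or next to the 10 kb limit, the 5 most occupied other ETS genes, with ties, and the 5 genes nearest to Ets1 in peak counts. A few further regions were named after their values were seen. The members, lists and tests were chosen with earlier results of these data known. The alternatives were equal list sizes, −log10 q of at least 5, an overlap of 100 bp, flanks of 0 or 50 kb, 3 of 3 libraries to hold a region, each library left out, and a replicate block. Group means per gene without TCF1 replicate 3 or with equal lists were added after the data were seen. Peak sequences away from gene starts were not analysed here. Some genes of the marker lists are not reported here.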

Additional observations from a re-analysis of the deposited data

How the results depend on the processing

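With lists of equal size (11423 peaks), LEF1 held 39 member regions and TCF1 34, against 93 and 68, 28 regions were in all 6 libraries against 37, and the LEF1 minus TCF1 difference at Ets1 was 1.0 peak (exact permutation p 0.6) against 12.67. When 3 of 3 libraries were needed, TCF1 held 37. Each library was then left out in turn. Peaks in 2 libraries were still needed to hold a region, so a factor with 2 libraries left needed both. This gave 79 to 94 regions held by LEF1 and 37 to 70 held by TCF1 (37 without TCF1 replicate 1 or 2). Regions in all remaining libraries numbered 37 to 63 (63 without TCF1 replicate 3). The Ets1 difference ranged from 7.17 to 16.17 peaks, that in the share of the list from -0.00788 to 0.0258 percentage points (negative without LEF1 replicate 3), and that in the median percentile from -3.89 to 8.19, against 2.97 (negative without TCF1 replicate 3). With equal lists the latter differences were 0.0292 and 5.97, both larger than the spread between libraries, unlike with full lists. The stricter q, the 100 bp overlap and the other flanks kept the region counts over all members within 1.5 times. Some counts per gene moved further. At the stricter q LEF1 held 4 regions at Etv6 against 8, and with 50 kb flanks 9 at Ets2 against 3. Over all settings 173 of 216 values per gene stayed within 1.5 times and 43 did not.

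With replicate number as a block, the Ets1 difference was 12.67 with an exact sign-flip p of 0.25, the smallest that 3 pairs allow. Same-numbered libraries had correlations of deviations of -0.149, 0.302 and 0.556 over genes. In this measure 1 of 3 LEF1 and 2 of 3 TCF1 libraries correlated best with their own number. The lists differ in length, so these correlations cannot show whether the numbers pair the samples, and the labels do not say.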
